A study of Homo sapiens with 21 samples.

Results

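The lysosome genes and MiT factors described here are 36 genes chosen by name: hydrolases, membrane proteins and proton pump subunits of the lysosome, together with GPNMB, TFEB and TFE3. They were found by matching the Ensembl identifiers of the deposited tables to gene symbols, and all 36 were present among the 58870 genes listed for each library. All 36 passed the filter on low values, which kept the 19290 genes reaching 10 in 3 or more of the 21 libraries. The RNA came from A375, an established human melanoma cell line with mutant BRAF. There were 7 groups of 3 libraries. gSOX10 #2 and gSOX10 #4 are SOX10 knockout cells made with Cas9 and a different guide RNA each, and per the study's methods individual clones were expanded, so each of these groups stands for 1 clone. The titles of the gSOX10 #4 libraries carry a clone number that the study's text gives to a clone of MeWo, another melanoma line, while their cell line label is A375. The files used here do not settle which is right. CRT34 Combo and CRT35 Combo are A375 lines without SOX10 that became tolerant to BRAF and MEK inhibitors in vivo and were sequenced in culture with 1 µM PLX4720, a BRAF inhibitor, and 35 nM PD0325901, a MEK inhibitor. CRT34 DMSO and CRT35 DMSO are the same lines in culture without the inhibitors, and Parental is unedited A375 cells with no treatment. The study compared these groups to learn what changes when melanoma cells lose SOX10, which directs neural crest and pigment cell development.

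Lysosomes are acidic organelles that break down proteins, lipids and sugars brought in by endocytosis and autophagy. A proton pump, the V-ATPase, acidifies them, and soluble hydrolases inside and heavily glycosylated proteins in the membrane do the rest of the work. TFEB and TFE3 belong, with MITF and TFEC, to the MiT family of transcription factors, which bind E-box motifs with the core CACGTG in promoters of many lysosomal and autophagy genes. The kinase complex mTORC1 holds TFEB and TFE3 in the cytoplasm when nutrients are plentiful, so their mRNA level is only part of their control. GPNMB, a transmembrane glycoprotein of melanosomes and lysosomes, is a known target of this family.

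The promoter sequences of members are shown first, since the E-box is the feature through which MiT factors are known to act on lysosomal genes. Promoters of 27 of the 36 members were matched in the RefSeq table of build GRCh38.p14, in which a promoter runs from 250 bases before to 50 bases after a transcription start, and these 27 had 40 such windows. CACGTG, which reads the same on both strands, was present in a window of 8 of the 27 members: LAMP1, CD63, CLN3, MCOLN1, CTSA, CTSD, GAA and ATP6V0D1. It was present in 7.26% of the 35116 promoters of the table. TCACGTGA, also the same on both strands and containing CACGTG, was present in 6 of these 8, all but CD63 and CTSD, and in 0.98% of all promoters in the table. These percentages are shares of single windows, whereas a member was counted if any of its windows held the motif. CD63, for example, held CACGTG in 1 of its 8 windows. The counts of members and the percentages are therefore not on the same basis. Below are the windows of GAA (chr17:80101331-80101630, plus strand), CTSA (chr20:45891085-45891384, plus strand), MCOLN1 (chr19:7522374-7522673, plus strand) and, of 2 windows for that gene, CLN3 (chr16:28492025-28492324, minus strand), each 5′ to 3′ with CACGTG in capitals. They were picked to set members with the motif that were called higher than Parental in some groups (GAA and CTSA) beside members with it that were called in none (MCOLN1 and CLN3).
GAA: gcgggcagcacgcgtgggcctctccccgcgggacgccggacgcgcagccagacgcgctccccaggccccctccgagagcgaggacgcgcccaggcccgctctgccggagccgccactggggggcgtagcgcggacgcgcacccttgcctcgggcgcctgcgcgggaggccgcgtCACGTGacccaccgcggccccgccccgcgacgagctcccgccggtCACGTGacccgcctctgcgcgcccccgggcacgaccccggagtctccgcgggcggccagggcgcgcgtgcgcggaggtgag
CTSA: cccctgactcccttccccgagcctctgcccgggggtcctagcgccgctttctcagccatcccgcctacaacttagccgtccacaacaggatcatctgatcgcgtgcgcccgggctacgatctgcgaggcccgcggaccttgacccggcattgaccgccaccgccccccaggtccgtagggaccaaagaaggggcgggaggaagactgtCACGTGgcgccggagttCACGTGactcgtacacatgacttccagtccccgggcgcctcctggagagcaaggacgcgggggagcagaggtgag
MCOLN1: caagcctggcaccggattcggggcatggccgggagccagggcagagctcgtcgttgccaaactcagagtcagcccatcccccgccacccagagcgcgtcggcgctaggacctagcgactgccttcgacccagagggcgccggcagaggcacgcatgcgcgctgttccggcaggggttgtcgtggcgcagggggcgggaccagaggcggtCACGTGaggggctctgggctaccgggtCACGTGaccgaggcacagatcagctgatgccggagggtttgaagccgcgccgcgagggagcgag
CLN3: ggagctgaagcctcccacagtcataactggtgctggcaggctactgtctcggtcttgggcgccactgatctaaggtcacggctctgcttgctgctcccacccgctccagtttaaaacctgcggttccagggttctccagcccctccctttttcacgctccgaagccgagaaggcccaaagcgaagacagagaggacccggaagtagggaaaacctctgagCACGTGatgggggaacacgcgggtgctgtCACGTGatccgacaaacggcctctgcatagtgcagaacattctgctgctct

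The capitals began 76 and 31 bases before the start site in GAA, 42 and 25 bases before it in CTSA, 41 and 14 bases before it in MCOLN1, and 30 bases and 1 base before it in CLN3. LAMP1 had the most, with 6 in a single window. No CACGTG was found in the windows of CD68, SMPD1, GRN, GPNMB, TFEB or TFE3, which says only that these letters were not in these windows. Windows of CTSK, CTSB, LAMP2, ASAH1, PSAP, HEXA, ATP6V1A, ATP6V1B2 and ATP6V1H were not analysed here.

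Values are the deposited normalised values, which are gene-level read counts scaled for library depth. Differences are log2 differences from limma fitted to log2(value + 1) over all 21 libraries, given with a standard error (SE), and folds are ratios of group means. A gene was called higher or lower when its Benjamini-Hochberg adjusted p over the 19290 genes was at most 0.05 and its fold at least 2. Shares of all genes are given for these calls. Counts of members at an unadjusted p under 0.05 have no such share, so they cannot be set against a background. The study describes the replicates of the knockout clones as independent, while for the other groups no source used here says that libraries came from separate cultures. Their p-values then measure the spread between libraries, which may be technical. In these bulk samples a change in the share of cells that express a gene and a change in RNA per cell cannot be told apart.

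Across the series the totals of the values were between 59.2 M and 68.3 M per library, and the depth estimated from the most frequent low value, taken as that of 1 read, was between 27.9 M reads (CRT35 DMSO replicate 1) and 76.6 M, with the next lowest library at 51.0 M. SOX10 was at 392, 504 and 459.6 in gSOX10 #2, 456, 488 and 517 in gSOX10 #4 and at most 6.32 in every CRT library, against 10350, 11880 and 12820 in Parental. CRT34 Combo replicate 3 correlated best with CRT34 DMSO (r = 0.969 over genes, against 0.964 with its own group), while the other 20 libraries lay nearest their own group. Counts of members called, and several results that rest on that library or on CRT35 DMSO replicate 1, are therefore given with and without them. Other values are with all libraries. The summed level of 7 fibroblast markers was 2518 to 2990 in gSOX10 #2, 1427 to 1792 in gSOX10 #4, 106800 to 115400 in CRT34 Combo, 145300 to 192200 in CRT34 DMSO, 282000 to 438400 in CRT35 Combo and 187500 to 269800 in CRT35 DMSO, against 531 to 668 in Parental. All 7 were called higher in each of the 4 CRT groups, 5 of 7 in gSOX10 #2 and 3 of 7 in gSOX10 #4, and their part in the differences below was not tested. Among 11 macrophage and osteoclast markers, TYROBP, AIF1 and OCSTAMP were at 0 in nearly all libraries and never above 2.59, and PTPRC reached 44.5 in CRT34 Combo replicate 1 and stayed under 20 in the other libraries. The sum of the 11 was 266 to 299 in gSOX10 #2, 288 to 625 in gSOX10 #4, 114 to 314 in CRT34 Combo, 281 to 509.6 in CRT34 DMSO, 109 to 233 in CRT35 Combo and 319 to 675 in CRT35 DMSO, against 349 to 491 in Parental. CSF1R was above Parental and LYZ below it in every library of the 6 groups. Among 8 pigment cell markers, MLANA and TYR were at or near 0 in every library, Parental included, and DCT was at no more than 11.2. TYRP1 averaged 621 ± 182 in CRT34 Combo, 386 ± 271 in CRT34 DMSO and 199 ± 79.1 in CRT35 Combo (mean ± SD), against 28.1 ± 21.5 in Parental. S100B was at no more than 16.3 in the 6 groups, against 365, 683 and 446 in Parental. Of the 5 pigment cell markers tested, 2 were called higher and 2 lower in each Combo group.

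Each call of a member against Parental was in the higher direction, and the number of members called ran from 5 in gSOX10 #4 to 20 in gSOX10 #2. In gSOX10 #2, 20 of the 36 members were called higher than in Parental, beside 15.9% of all genes tested, and 0 were called lower, beside 7.78%. In gSOX10 #4, 5 members were called higher, beside 11.8% of all genes, and 0 lower, beside 8.91%, so that the share of members called there, 13.9%, was near the background. CRT34 Combo had 11 members called higher and 0 lower, beside 19.1% and 8.09% of all genes, and CRT35 Combo had 16 higher and 0 lower, beside 20.1% and 10.2%. Without inhibitors, CRT34 DMSO had 9 called higher and 0 lower, beside 15.7% and 7.35%, and CRT35 DMSO had 10 higher and 0 lower, beside 15.7% and 7.98%. Without CRT34 Combo replicate 3 and CRT35 DMSO replicate 1 the members called higher were 20 in gSOX10 #2, 5 in gSOX10 #4, 12 in CRT34 Combo, 16 in CRT35 Combo, 9 in CRT34 DMSO and 10 in CRT35 DMSO. In the same order, 3125, 2337, 3707, 3887, 3055 and 2698 of the 19137 genes tested in that fit were called higher.

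The median log2 difference of the 36 members from Parental was 1.10 in gSOX10 #2, 0.41 in gSOX10 #4, 0.58 in CRT34 Combo, 0.86 in CRT35 Combo, 0.52 in CRT34 DMSO and 0.64 in CRT35 DMSO, while the median of all genes tested lay between 0 and 0.05 in these comparisons. The 6 comparisons share the Parental libraries and are not independent of each other. Although 0 members were called lower by limma, at an unadjusted p under 0.05 and any fold 2 members were lower in gSOX10 #2, 3 in gSOX10 #4, 1 in CRT34 Combo, 1 in CRT35 Combo, 4 in CRT34 DMSO and 1 in CRT35 DMSO. CD68, SMPD1, CTSB and CTSK were called higher in all 6 groups, and 14 members were called in none of the 6.

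**Figure D1:**
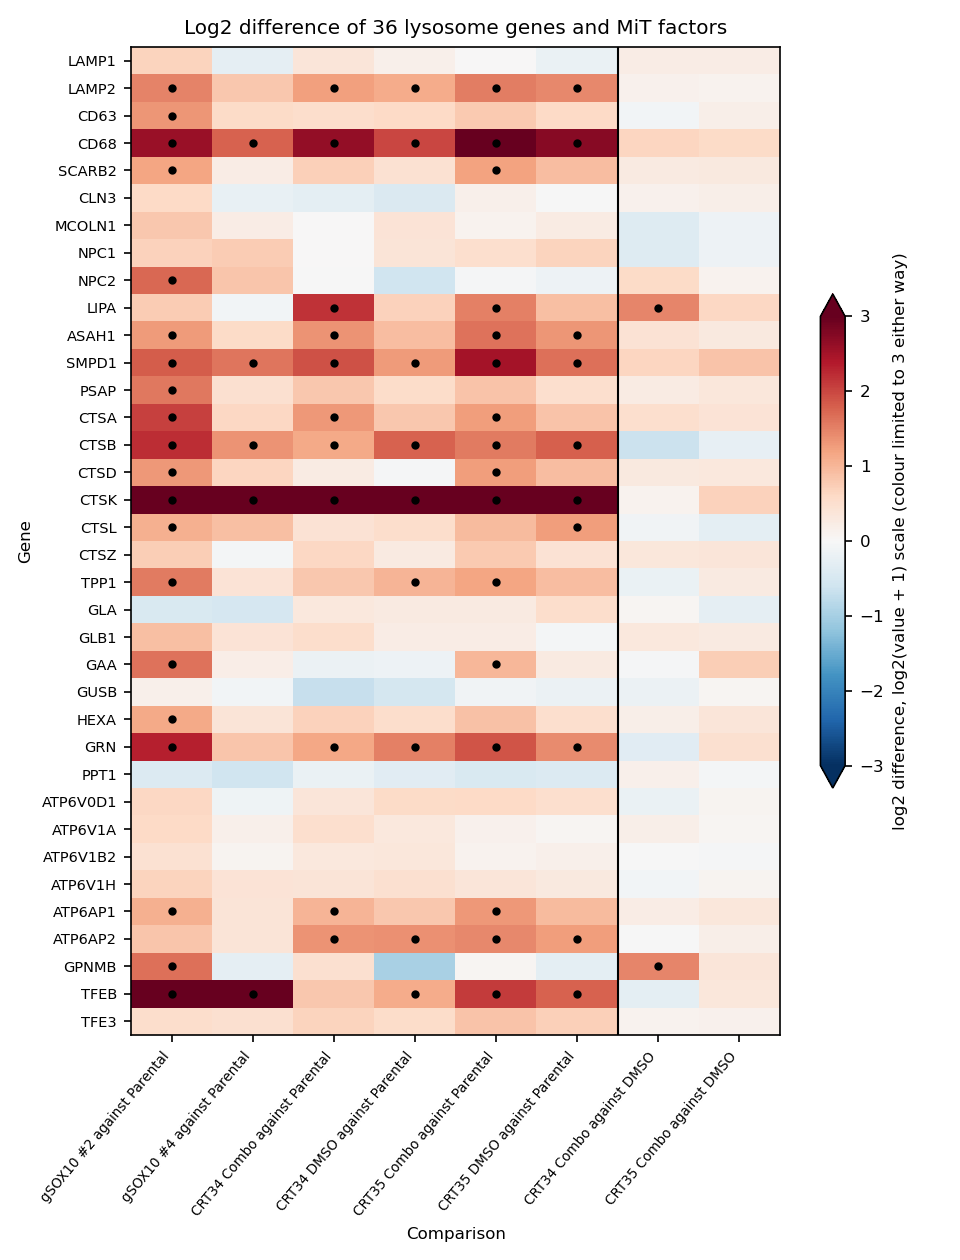
Log2 difference of each of the 36 members (rows) in 8 comparisons (columns): each of the 6 groups against Parental, then Combo against DMSO in CRT34 and CRT35. Red is higher and blue lower in the group named first, colours stop at 3 either way, and black dots mark calls. The CD68, SMPD1, CTSB and CTSK rows carry dots in all 6 columns against Parental, and the 2 inhibitor columns hold 2 dots, LIPA and GPNMB in CRT34.

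Among the 7 cathepsins and other proteases, which cut proteins in the lysosome, 6 were called higher in gSOX10 #2, 2 in gSOX10 #4, 3 in CRT34 Combo, 5 in CRT35 Combo and 3 in each DMSO group. CTSK (ENSG00000143387.13, minus strand of chromosome 1, 150794880 to 150809577 in GRCh38), cathepsin K, a collagen-degrading cysteine protease best known from osteoclasts, differed most: its group means were 14.4-fold the Parental mean in gSOX10 #2, 19.9-fold in gSOX10 #4, 40.3-fold in CRT34 Combo, 37.3-fold in CRT34 DMSO, 79.8-fold in CRT35 Combo and 48.1-fold in CRT35 DMSO. The CTSK values were 870.5, 1206 and 1142 in gSOX10 #2 and 1435, 1446 and 1546 in gSOX10 #4. CTSK stood at 2586, 2769 and 3624 in CRT34 Combo, 2778, 3012 and 2527 in CRT34 DMSO, 8006, 5247 and 4549 in CRT35 Combo and 4107, 3190 and 3422 in CRT35 DMSO, against 60.2, 95.5 and 67.3 in Parental. Every library of the 6 groups lay above every Parental library, and both CRT lines lay above both knockout clones. The log2 difference from Parental was 3.85 ± 0.21 (SE, adjusted p = 1.81e-10) in gSOX10 #2 and 6.29 ± 0.21 (SE, adjusted p = 3.96e-14) in CRT35 Combo, at the ends of the range. CTSK is also made by activated fibroblasts. CTSK and the summed fibroblast markers given above were both higher in the CRT groups than in the clones and highest in CRT35 Combo. Both were also higher in CRT35 DMSO, where CTSK averaged 3573 ± 477 (mean ± SD), than in CRT34 Combo. In some other pairs their order differed. CTSK averaged 1476 ± 61.3 in gSOX10 #4 and 1073 ± 178 in gSOX10 #2 (mean ± SD), where the sum was lower in gSOX10 #4. It averaged 2993 ± 554 in CRT34 Combo and 2772 ± 243 in CRT34 DMSO, where the sum was lower in CRT34 Combo. In the CRT groups the sum rests mainly on COL1A1, COL1A2 and THY1. The other markers were highest elsewhere, DCN and FAP in CRT34 DMSO, LUM in CRT34 Combo and PDGFRA in CRT35 DMSO. A part of these markers in the CTSK levels was not tested.

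CTSB, cathepsin B, a cysteine protease active in most cells, measured 42030, 45480 and 37820 in gSOX10 #2 and 26190, 21310 and 21620 in gSOX10 #4. CTSB stood at 20950, 24790 and 14950 in CRT34 Combo, 37730, 28110 and 27680 in CRT34 DMSO, 27830, 26690 and 25310 in CRT35 Combo and 36050, 30480 and 28300 in CRT35 DMSO, against 8376, 9835 and 8861 in Parental. No library of the 6 groups overlapped Parental. Its log2 difference from Parental was 2.21 ± 0.16 (SE, adjusted p = 8.23e-09) in gSOX10 #2, the largest, and 1.14 ± 0.16 (SE, adjusted p = 1.6e-05) in CRT34 Combo, the smallest. The call in CRT34 Combo was lost when replicate 2 of that group was left out, which gave 0.97 on the log2 scale.

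CTSA, a serine carboxypeptidase that also stabilises beta-galactosidase and neuraminidase in a complex, stood at 19970, 21950 and 20290 in gSOX10 #2 and 8436, 6907 and 7455 in gSOX10 #4. Its values were 14560, 13720 and 9145 in CRT34 Combo, 7241, 10070 and 8879 in CRT34 DMSO, 15850, 11390 and 9387 in CRT35 Combo and 10380, 8696 and 7891 in CRT35 DMSO, against 4886, 5137 and 4870 in Parental. All libraries of the 6 groups lay above Parental, but only gSOX10 #2 (2.06 ± 0.18, adjusted p = 9.43e-08), CRT34 Combo (1.30 ± 0.18, adjusted p = 1.56e-05) and CRT35 Combo (1.26 ± 0.18, adjusted p = 1.55e-05) passed the fold threshold. In gSOX10 #4 the log2 difference was 0.61 ± 0.18, with an adjusted p of 0.0139. Without CRT34 Combo replicate 3 that of CRT34 Combo was 1.51.

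CTSD, cathepsin D, an aspartic protease, was at 10690, 14660 and 12060 in gSOX10 #2 and 8410, 8087 and 7343 in gSOX10 #4. The CTSD levels were 9125, 6808 and 3498 in CRT34 Combo, 3623, 5801 and 5582 in CRT34 DMSO, 15370, 11270 and 10030 in CRT35 Combo and 10570, 10140 and 8291 in CRT35 DMSO, against 4359, 5793 and 5114 in Parental. It was called higher in gSOX10 #2 (1.29 ± 0.26, adjusted p = 0.000629) and in CRT35 Combo (1.25 ± 0.26, adjusted p = 0.000591), and every library of gSOX10 #4 and CRT35 DMSO was above Parental under the fold. By contrast the CRT34 libraries overlapped Parental, with log2 differences of 0.25 ± 0.26 in CRT34 Combo and -0.05 ± 0.26 in CRT34 DMSO. Among the 7 member proteases, CTSD differed most between the CRT lines without inhibitors: CRT35 DMSO exceeded CRT34 DMSO by 0.97 ± 0.26 (SE, adjusted p = 0.016), just under the fold of 2.

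CTSL, cathepsin L, another cysteine protease, was measured at 22010, 17310 and 20880 in gSOX10 #2 and 22610, 15340 and 16050 in gSOX10 #4. Levels of CTSL were 12240, 14770 and 11380 in CRT34 Combo, 11230, 14690 and 15230 in CRT34 DMSO, 16550, 19580 and 18550 in CRT35 Combo and 20940, 22670 and 23840 in CRT35 DMSO, against 9489, 9268 and 9708 in Parental. Every library of the 6 groups lay above Parental. The log2 difference was 1.07 ± 0.15 (SE, adjusted p = 1.78e-05) in gSOX10 #2 and 1.24 ± 0.15 (SE, adjusted p = 2.35e-06) in CRT35 DMSO, both called, and between 0.42 and 0.94 in the other groups, all of them under a fold of 2 with adjusted p of at most 0.0271.

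TPP1, tripeptidyl peptidase 1, an exopeptidase whose loss causes a childhood lipofuscinosis, measured 9263, 9883 and 8555 in gSOX10 #2 and 3200, 4757 and 4650 in gSOX10 #4. TPP1 stood at 6037, 6190 and 4326 in CRT34 Combo, 6373, 5881 and 6641 in CRT34 DMSO, 8639, 7262 and 5778 in CRT35 Combo and 6652, 6139 and 5155 in CRT35 DMSO, against 3222, 3247 and 2922 in Parental. It was called higher in gSOX10 #2 (1.56 ± 0.17, adjusted p = 1.12e-06), CRT35 Combo (1.19 ± 0.17, adjusted p = 1.31e-05) and CRT34 DMSO (1.01 ± 0.17, adjusted p = 0.00012). The gSOX10 #4 libraries overlapped Parental, replicate 1 being within its range. The CRT34 DMSO call sat at the threshold and was lost without Parental replicate 3, CRT34 DMSO replicate 1 or CRT34 DMSO replicate 3, with log2 values down to 0.96. CTSZ, a cysteine carboxypeptidase, ranged from 12010 to 27240 over the 21 libraries and was called in no comparison, its log2 differences from Parental lying between -0.05 and 0.80.

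**Figure D2:**
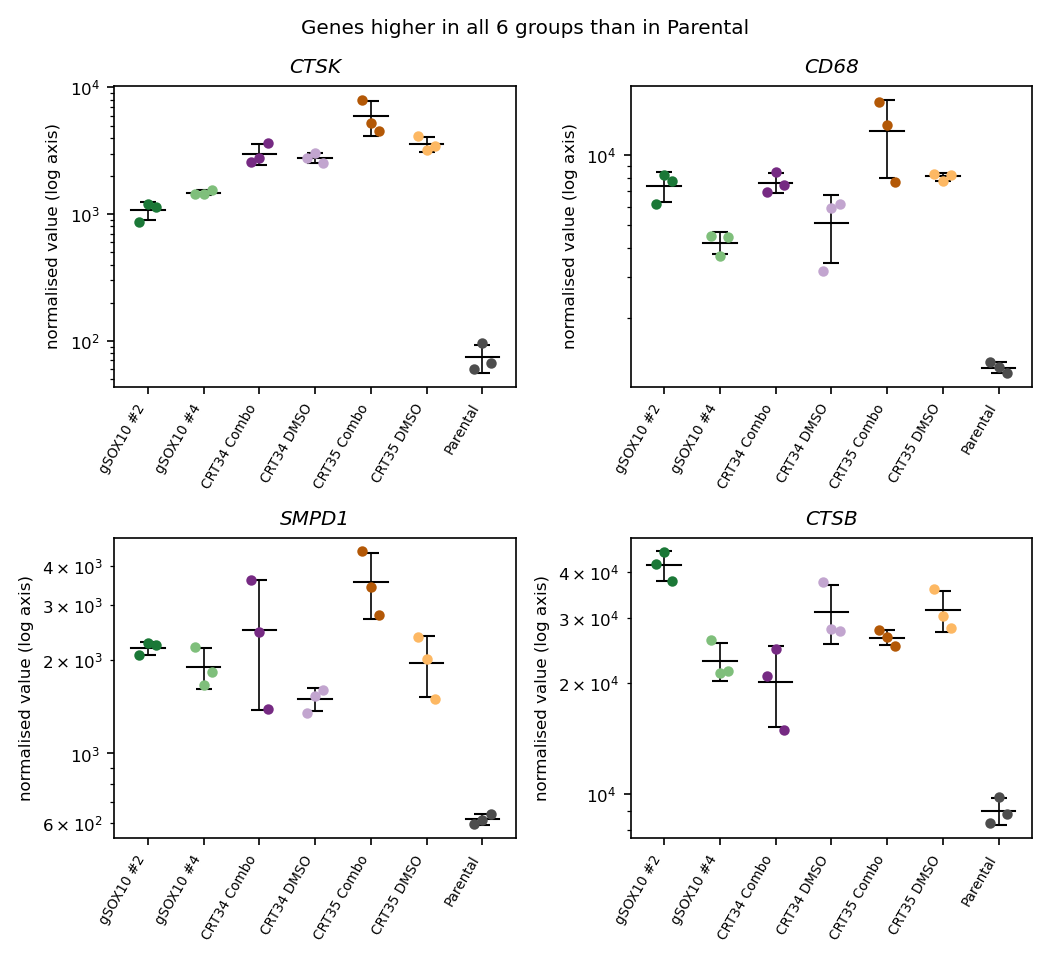
Normalised value (log axis) of CTSK, CD68, SMPD1 and CTSB in each library, by group. Points are libraries, horizontal bars are group means, and vertical bars are 1 SD (n = 3). The 3 Parental points lie below all points of the other 6 groups in each panel, at 60.2 to 95.5 for CTSK.

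Of 8 lysosome membrane proteins, 4 were called higher in gSOX10 #2 (LAMP2, CD63, CD68 and SCARB2), 3 in CRT35 Combo, 2 in CRT34 Combo and in each DMSO group, and 1 in gSOX10 #4. CD68 (ENSG00000129226.14, plus strand of chromosome 17, 7579491 to 7582111), macrosialin, a LAMP family glycoprotein abundant in macrophages, was at 6182, 8184 and 7764 in gSOX10 #2 and 4489, 3682 and 4467 in gSOX10 #4. CD68 values were 6972, 8454 and 7442 in CRT34 Combo, 3174, 5940 and 6154 in CRT34 DMSO, 16860, 13510 and 7656 in CRT35 Combo and 8310, 7734 and 8257 in CRT35 DMSO, against 1286, 1226 and 1156 in Parental. Parental was below every other library, and the means of the 6 groups were 3.45-fold (gSOX10 #4) to 10.4-fold (CRT35 Combo) the Parental mean. The log2 difference was 1.78 ± 0.24 (SE, adjusted p = 1.39e-05) in gSOX10 #4 and 3.30 ± 0.24 (SE, adjusted p = 2.79e-09) in CRT35 Combo. Of the macrophage and osteoclast markers, CD14 was at no more than 24.5 in any library and TYROBP and AIF1 at or near 0. CSF1R averaged 197 ± 16.1 in gSOX10 #2, 433.5 ± 185 in gSOX10 #4, 119 ± 126 in CRT34 Combo, 384 ± 124 in CRT34 DMSO, 108 ± 58.0 in CRT35 Combo and 353.5 ± 149 in CRT35 DMSO, against 12.2 ± 5.05 in Parental. PTPRC averaged 20.0 ± 21.4 in CRT34 Combo and 15.5 ± 3.64 in CRT35 Combo, against 0.28 ± 0.49 in Parental. Of the 7 such markers tested, 2 (28.6%) were called higher in gSOX10 #2 and 2 (28.6%) in gSOX10 #4. The tolerant lines had 3 (42.9%) called higher in CRT34 Combo, 3 (42.9%) in CRT35 Combo, 1 (14.3%) in CRT34 DMSO and 4 (57.1%) in CRT35 DMSO. In the same order, 15.9%, 11.8%, 19.1%, 20.1%, 15.7% and 15.7% of all genes were called higher. In CRT34 Combo 2 markers were called lower, and in each other group 1. PTPRC passed the filter only through the Combo groups, and ITGAM reached 10 only in libraries of gSOX10 #4, the Combo groups and CRT35 DMSO. The part of these markers in the CD68 levels was not tested.

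LAMP2, a major glycoprotein of the lysosomal membrane with an isoform that serves chaperone-mediated autophagy, was measured at 16200, 18280 and 16240 in gSOX10 #2 and 8064, 11480 and 12640 in gSOX10 #4. LAMP2 stood at 15280, 15170 and 12400 in CRT34 Combo, 12070, 13870 and 13440 in CRT34 DMSO, 18950, 17070 and 16840 in CRT35 Combo and 17050, 16070 and 16120 in CRT35 DMSO, against 6169, 5950 and 5960 in Parental. All libraries of the 6 groups lay above Parental. LAMP2 was called higher in 5 groups, from 1.12 ± 0.13 in CRT34 DMSO to 1.55 ± 0.13 in CRT35 Combo (log2, SE), and in gSOX10 #4 it reached 0.81 ± 0.13 (SE, adjusted p = 0.000117), under a fold of 2. In gSOX10 #4, replicate 1 was lower than replicates 2 and 3 for this gene. LAMP1, the other main glycoprotein of that membrane, was called in none, with values of 10670 to 22460: every gSOX10 #2 library was above Parental (0.66 ± 0.12, adjusted p = 0.000215) and every gSOX10 #4 library below it (-0.27 ± 0.12, adjusted p = 0.0852).

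SCARB2, known as LIMP-2, the receptor that carries glucocerebrosidase to lysosomes, measured 20280, 21720 and 20030 in gSOX10 #2 and 7812, 11880 and 12680 in gSOX10 #4. SCARB2 in the tolerant lines was at 14430, 14850 and 15120 in CRT34 Combo, 10150, 14480 and 12880 in CRT34 DMSO, 23030, 19810 and 20160 in CRT35 Combo and 19070, 15410 and 17310 in CRT35 DMSO, against 9067, 9451 and 8728 in Parental. It was called higher in gSOX10 #2 (1.19 ± 0.15, adjusted p = 7e-06) and CRT35 Combo (1.21 ± 0.15, adjusted p = 3.05e-06), and gSOX10 #4 overlapped Parental through its replicate 1. CD63, a tetraspanin of late endosomes, lysosomes and secreted vesicles, was called in gSOX10 #2, at 45220 ± 4135 (mean ± SD), against 18020 ± 1772 in Parental, a log2 difference of 1.33 ± 0.15 (SE, adjusted p = 1.14e-06). In the other 5 groups CD63 averaged 26970 ± 4711 in gSOX10 #4, 26010 ± 3546 in CRT34 Combo, 27280 ± 2514 in CRT34 DMSO, 31340 ± 5506 in CRT35 Combo and 27310 ± 1633 in CRT35 DMSO, all above Parental without reaching a fold of 2.

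CLN3, a membrane protein lost in juvenile Batten disease, ranged from 740.1 to 2312, MCOLN1, the calcium channel TRPML1, from 525 to 1691, and NPC1, which hands cholesterol out of the lysosome, from 2609 to 5540. None of these 3 was called in any comparison. For NPC1 the knockout clones overlapped: the log2 difference from Parental was 0.75 ± 0.13 in gSOX10 #4 and 0.69 ± 0.13 in gSOX10 #2, and the clones' own difference was 0.06 ± 0.13 with an adjusted p of 0.784 and a 95% interval of -0.21 to 0.34.

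The 5 genes of lipid transfer and lipid hydrolysis included a gene called in all 6 groups, SMPD1 (ENSG00000166311.10, plus strand of chromosome 11, 6390440 to 6394998), acid sphingomyelinase, which splits sphingomyelin into ceramide. SMPD1 was at 2062, 2255 and 2227 in gSOX10 #2 and 2202, 1657 and 1825 in gSOX10 #4. Its levels were 3604, 2458 and 1391 in CRT34 Combo, 1353, 1528 and 1593 in CRT34 DMSO, 4454, 3429 and 2772 in CRT35 Combo and 2357, 2005 and 1495 in CRT35 DMSO, against 592, 613 and 639 in Parental. Parental did not overlap any group, and the group means were 2.43-fold (CRT34 DMSO) to 5.78-fold (CRT35 Combo) the Parental mean, with log2 differences of 1.28 ± 0.25 (SE, adjusted p = 0.000483) and 2.50 ± 0.25 (SE, adjusted p = 1.65e-07). The knockout clones overlapped in SMPD1, the difference of gSOX10 #4 from gSOX10 #2 being -0.21 ± 0.25 with an adjusted p of 0.604 and a 95% interval of -0.74 to 0.31. The log2 difference of CRT34 Combo from Parental was 1.91 ± 0.25 (SE), and 2.27 without replicate 3 of that group.

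ASAH1, acid ceramidase, which acts on the ceramide that SMPD1 makes, measured 5103, 6013 and 4713 in gSOX10 #2 and 2811, 3418 and 3471 in gSOX10 #4. ASAH1 stood at 6624, 6321 and 3955 in CRT34 Combo, 3729, 4115 and 4447 in CRT34 DMSO, 7835, 7005 and 5326 in CRT35 Combo and 6388, 5047 and 4838 in CRT35 DMSO, against 2211, 2080 and 2159 in Parental. Each library of the 6 groups exceeded Parental. It was called higher in gSOX10 #2 (1.29 ± 0.18, adjusted p = 1.8e-05), CRT34 Combo (1.35 ± 0.18), CRT35 Combo (1.63 ± 0.18) and CRT35 DMSO (1.32 ± 0.18). In CRT34 DMSO it was 0.93 ± 0.18 (SE, adjusted p = 0.000464), just under the fold. Without CRT34 Combo replicate 3 the CRT34 Combo difference was 1.59.

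LIPA, lysosomal acid lipase, which frees cholesterol and fatty acids from lipoprotein lipids, was measured at 6026, 7755 and 6402 in gSOX10 #2 and 3260, 4158 and 3914 in gSOX10 #4. LIPA levels were 24440, 24880 and 9090 in CRT34 Combo, 6412, 5623 and 7276 in CRT34 DMSO, 11260, 12390 and 10210 in CRT35 Combo and 7953, 6127 and 8110 in CRT35 DMSO, against 3703, 4167 and 3994 in Parental. The Combo groups were highest, with log2 differences from Parental of 2.16 ± 0.26 (SE, adjusted p = 2.33e-06) in CRT34 Combo and 1.51 ± 0.26 (SE, adjusted p = 9e-05) in CRT35 Combo. The CRT34 Combo value depends on replicate 3, which was far below the other 2, and was 2.64 without it. The gSOX10 #4 libraries overlapped Parental (-0.07 ± 0.26), while every library of gSOX10 #2 and of the DMSO groups was above Parental, with log2 differences of 0.76 ± 0.26 in gSOX10 #2, 0.70 ± 0.26 in CRT34 DMSO and 0.89 ± 0.26 in CRT35 DMSO.

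NPC2, the soluble partner that passes cholesterol to NPC1, was called in gSOX10 #2 (1.73 ± 0.14, adjusted p = 2.13e-08), where it averaged 11320 ± 1067, against 3414 ± 253 in Parental. Its mean was 6086 ± 408 in gSOX10 #4 and was close to or under Parental in the tolerant lines, at 3436 ± 788 in CRT34 Combo, 2262 ± 101 in CRT34 DMSO, 3308 ± 80.2 in CRT35 Combo and 3061 ± 209 in CRT35 DMSO. In CRT34 DMSO all 3 libraries were below Parental (-0.59 ± 0.14, adjusted p = 0.00197). PSAP, prosaposin, is the precursor of the saposins that help hydrolases reach sphingolipids. With all libraries PSAP was likewise called in gSOX10 #2 alone of the 6 groups (1.57 ± 0.16, adjusted p = 5.34e-07). Without CRT34 Combo replicate 3 it was also called in CRT34 Combo (1.02, adjusted p = 2.44e-05), against 0.80 ± 0.16 with that library. PSAP averaged 95410 ± 3836 in gSOX10 #2, 45060 ± 3573 in gSOX10 #4, 57160 ± 13580 in CRT34 Combo, 47220 ± 3272 in CRT34 DMSO, 58630 ± 12970 in CRT35 Combo and 45770 ± 6042 in CRT35 DMSO, against 32060 ± 1039 in Parental.

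Glycosidases trim sugars from glycolipids, glycoproteins and glycogen. Of 5, 2 were called higher in gSOX10 #2, beside 15.9% of all genes, and 1 in CRT35 Combo, beside 20.1%. In the other 4 groups 0 were called. GAA, acid alpha-glucosidase, which degrades glycogen, stood at 4771, 4310 and 3998 in gSOX10 #2 and 2209, 1320 and 1429 in gSOX10 #4. GAA values were 2544, 1176 and 634 in CRT34 Combo, 1085, 1284 and 1462 in CRT34 DMSO, 3943, 2620 and 2195 in CRT35 Combo and 2256, 1639 and 1344 in CRT35 DMSO, against 1251, 1377 and 1624 in Parental. It was called in gSOX10 #2 (1.63 ± 0.35, adjusted p = 0.000993) and CRT35 Combo (1.01 ± 0.35, adjusted p = 0.0215), and the other groups overlapped Parental. The CRT35 Combo call was at the threshold and was lost with quantile normalization and without Parental replicate 1, Parental replicate 2 or CRT35 Combo replicate 1 (lowest log2 value 0.77).

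HEXA, the alpha subunit of beta-hexosaminidase A, was called in gSOX10 #2, with 11330 ± 1018, against 5175 ± 261 in Parental (1.13 ± 0.15, adjusted p = 1.08e-05). The HEXA means were 6782 ± 971 in gSOX10 #4, 8492 ± 1717 in CRT34 Combo, 7403 ± 354 in CRT34 DMSO, 9583 ± 1881 in CRT35 Combo and 7381 ± 492 in CRT35 DMSO. GLB1, beta-galactosidase, ranged from 3233 to 7552 and came closest to a call in gSOX10 #2 (0.89 ± 0.13). GLA, alpha-galactosidase A, ranged from 1974 to 4777 and was below Parental in every library of both clones (-0.45 ± 0.16 in gSOX10 #2, adjusted p = 0.0298, and -0.50 ± 0.16 in gSOX10 #4, adjusted p = 0.0195). GUSB, beta-glucuronidase, ranged from 1511 to 3366, and its largest difference was -0.69 ± 0.13 (SE, adjusted p = 0.000251) in CRT34 Combo, where each library was below Parental.

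GRN, progranulin, a secreted and lysosomal glycoprotein that supports hydrolase activity, was at 22480, 23670 and 20220 in gSOX10 #2 and 8635, 7211 and 7656 in gSOX10 #4. Its values were 16040, 9777 and 5878 in CRT34 Combo, 10710, 12680 and 14020 in CRT34 DMSO, 20830, 14800 and 13610 in CRT35 Combo and 14590, 11530 and 9364 in CRT35 DMSO, against 3640, 4474 and 5163 in Parental. GRN was above Parental in every library of the 6 groups and called in 5: gSOX10 #2 (2.33 ± 0.26, adjusted p = 1.26e-06), CRT34 Combo (1.15 ± 0.26), CRT35 Combo (1.88 ± 0.26), CRT34 DMSO (1.50 ± 0.26) and CRT35 DMSO (1.41 ± 0.26). In gSOX10 #4 it was 0.83 ± 0.26 (SE, adjusted p = 0.0159). The CRT34 Combo libraries spread widely, and the call there was lost without replicate 1 of that group (log2 value 0.79). Without replicate 3 of that group the log2 value was 1.515 and the call was kept. PPT1, palmitoyl-protein thioesterase 1, which removes fatty acids from proteins, went the other way: it ranged from 10530 to 18310, and every library of the 6 groups was below every Parental library. Its log2 differences lay between -0.59 (gSOX10 #4, adjusted p = 0.000918) and -0.20 (CRT34 Combo, adjusted p = 0.18), none past the fold.

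Of the 6 V-ATPase members, both accessory proteins were called in some groups and the 4 core subunits in none. ATP6AP1, an accessory protein needed for assembly of the pump, measured 9009, 10070 and 10270 in gSOX10 #2 and 6959, 5468 and 6016 in gSOX10 #4. ATP6AP1 stood at 11230, 10500 and 7152 in CRT34 Combo, 7074, 8878 and 8488 in CRT34 DMSO, 12700, 11030 and 10800 in CRT35 Combo and 10220, 8857 and 8154 in CRT35 DMSO, against 4573, 4656 and 4754 in Parental. Parental was below every other library, and the gene was called in gSOX10 #2 (1.07 ± 0.15, adjusted p = 1.71e-05), CRT34 Combo (1.02 ± 0.15, adjusted p = 2.21e-05) and CRT35 Combo (1.30 ± 0.15, adjusted p = 9.2e-07). The CRT34 Combo call was lost without replicate 1 or replicate 2 of that group (lowest log2 value 0.89).

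ATP6AP2, the (pro)renin receptor and the other accessory protein, was measured at 12410, 12510 and 12580 in gSOX10 #2 and 7827, 9133 and 10670 in gSOX10 #4. Its levels were 18840, 19700 and 15620 in CRT34 Combo, 17020, 18680 and 18800 in CRT34 DMSO, 22340, 18620 and 16380 in CRT35 Combo and 18280, 16040 and 16220 in CRT35 DMSO, against 7174, 6886 and 7019 in Parental. All 4 CRT groups were called, at 1.36 ± 0.13 in CRT34 Combo, 1.43 ± 0.13 in CRT35 Combo, 1.37 ± 0.13 in CRT34 DMSO and 1.26 ± 0.13 in CRT35 DMSO (log2, SE), with adjusted p from 2.99e-08 to 2e-07. The clones were above Parental in every library but under the fold, at 0.83 ± 0.13 in gSOX10 #2 and 0.38 ± 0.13 in gSOX10 #4. The core subunits ATP6V0D1 (3817 to 7743), ATP6V1A (7062 to 17660), ATP6V1B2 (4150 to 7114) and ATP6V1H (2767 to 4967) were called in no comparison. Their log2 differences from Parental were between -0.13 (ATP6V0D1 in gSOX10 #4) and 0.67 (ATP6V1H in gSOX10 #2). ATP6V1A in gSOX10 #4 was spread over 7062, 14900 and 16430, replicate 1 being less than the 3 Parental libraries and the other 2 more.

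TFEB (ENSG00000112561.18, minus strand of chromosome 6, 41683978 to 41736259) was called higher in 5 of the 6 groups. The TFEB values were 214, 262 and 406 in gSOX10 #2 and 305, 183 and 307 in gSOX10 #4. TFEB stood at 90.4, 38.5 and 44.8 in CRT34 Combo, 55.8, 71.6 and 73.5 in CRT34 DMSO, 163, 142 and 100.2 in CRT35 Combo and 131, 104 and 85.5 in CRT35 DMSO, against 14.4, 38.2 and 49.3 in Parental. Both clones lay far above Parental, with means 8.65-fold (gSOX10 #2) and 7.8-fold (gSOX10 #4) the Parental mean, and the CRT libraries lay between, those of CRT34 Combo overlapping Parental. The log2 difference was 3.19 ± 0.41 (SE, adjusted p = 6.42e-06) in gSOX10 #2 and 3.05 ± 0.41 (SE, adjusted p = 1.22e-05) in gSOX10 #4. In the tolerant lines it was 2.10 ± 0.41 (SE, adjusted p = 0.000304) in CRT35 Combo, 1.77 ± 0.41 (SE, adjusted p = 0.00181) in CRT35 DMSO, 1.11 ± 0.41 (SE, adjusted p = 0.0354) in CRT34 DMSO and 0.81 ± 0.41 (SE, adjusted p = 0.109) in CRT34 Combo. The CRT34 DMSO call was lost without the filter, with a pseudocount of 10, with quantile normalization, with the libraries of the compared groups only, and when Parental replicate 1, CRT34 DMSO replicate 2 or CRT34 DMSO replicate 3 was left out (log2 values 0.60 to 1.46 over all alternatives, adjusted p up to 0.242).

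TFE3 was higher than Parental in every library of the 6 groups but under a fold of 2 in all of them. TFE3 values were 6143, 7113 and 6990 in gSOX10 #2 and 7971, 5877 and 5890 in gSOX10 #4. The TFE3 levels were 7851, 7439 and 7280 in CRT34 Combo, 6513, 6940 and 7394 in CRT34 DMSO, 9281, 8031 and 8277 in CRT35 Combo and 8236, 7657 and 7410 in CRT35 DMSO, against 4798, 4773 and 4543 in Parental. Its log2 difference from Parental lay between 0.47 ± 0.11 (SE, adjusted p = 0.00345) in gSOX10 #4 and 0.86 ± 0.11 (SE, adjusted p = 5.8e-06) in CRT35 Combo, and the largest adjusted p of the 6 was 0.00345.

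Of the 2 other family members, which are not among the 36, MITF, the factor of the pigment cell lineage, was at 2384, 2689 and 2115 in gSOX10 #2 and 862, 2148 and 1337 in gSOX10 #4. MITF stood at 8954, 10250 and 3772 in CRT34 Combo, 2779, 1936 and 1806 in CRT34 DMSO, 4116, 2934 and 3097 in CRT35 Combo and 1586, 1519 and 1587 in CRT35 DMSO, against 1502, 1448 and 1390 in Parental. It was called higher than Parental in the Combo groups, at 2.28 ± 0.31 (SE, adjusted p = 1.01e-05) in CRT34 Combo and 1.21 ± 0.31 (SE, adjusted p = 0.00321) in CRT35 Combo, and gSOX10 #4 overlapped Parental. TFEC averaged 66.2 ± 27.1 in gSOX10 #2, 158 ± 47.4 in gSOX10 #4, 186 ± 119 in CRT34 Combo, 47.3 ± 12.7 in CRT34 DMSO, 138 ± 21.3 in CRT35 Combo and 129.8 ± 169 in CRT35 DMSO (mean ± SD), against 22.6 ± 6.12 in Parental. The CRT35 DMSO mean rests on replicate 1, the 3 libraries being at 324.5, 39.2 and 25.8. TFEC was called higher in gSOX10 #4 (2.74 ± 0.66, adjusted p = 0.00306), CRT34 Combo (2.80 ± 0.66, adjusted p = 0.00195) and CRT35 Combo (2.58 ± 0.66, adjusted p = 0.00305). Without CRT34 Combo replicate 3 and CRT35 DMSO replicate 1, TFEC was also called in gSOX10 #2 (1.47, adjusted p = 0.00323) and CRT34 DMSO (1.03, adjusted p = 0.0293).

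**Figure D3:**
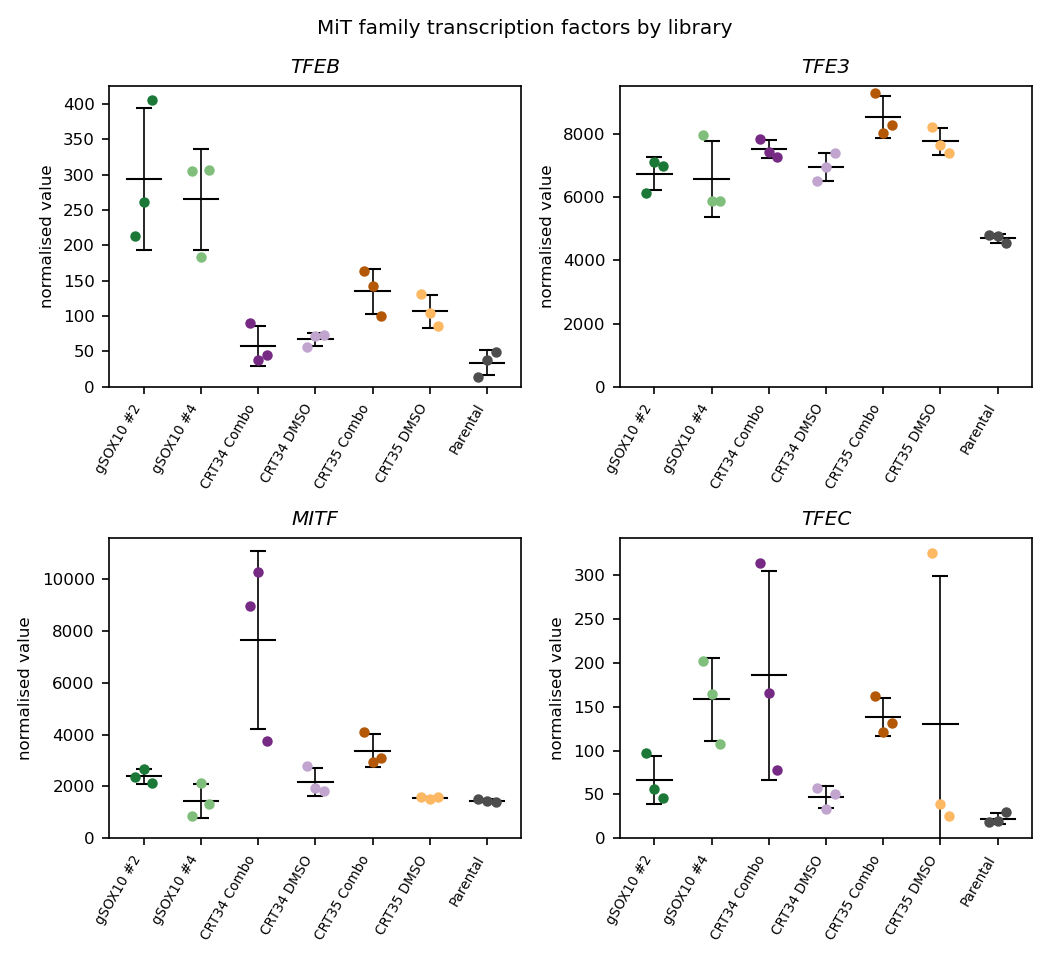
Normalised value of TFEB, TFE3, MITF and TFEC in each library, by group, on linear axes from 0. Points are libraries, horizontal bars group means and vertical bars 1 SD (n = 3), cut at 0 for TFEC in CRT35 DMSO. TFEB is highest in the knockout clones, at 183 to 406, and MITF in CRT34 Combo, at 3772 to 10250.

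GPNMB (ENSG00000136235.16, plus strand of chromosome 7, 23235967 to 23275108) was not uniform across the SOX10-deficient groups. Its values were 29060, 34910 and 25240 in gSOX10 #2 and 6513, 9357 and 7482 in gSOX10 #4. GPNMB stood at 15070, 16880 and 8933 in CRT34 Combo, 4223, 4739 and 5304 in CRT34 DMSO, 10830, 10110 and 8521 in CRT35 Combo and 8405, 7177 and 7281 in CRT35 DMSO, against 10810, 9778 and 7731 in Parental. It was called higher than Parental in gSOX10 #2 (1.66 ± 0.20, adjusted p = 3.79e-06), where every library was above Parental, and it was lower in every library of CRT34 DMSO (-0.98 ± 0.20, adjusted p = 0.00075), just under the fold. The other 4 groups overlapped Parental, with log2 differences of -0.28 ± 0.20 in gSOX10 #4, 0.49 ± 0.20 in CRT34 Combo, 0.06 ± 0.20 in CRT35 Combo and -0.30 ± 0.20 in CRT35 DMSO.

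The knockout clones were compared with each other to see how far the members differed between cells made with different guides. Each guide is represented by 1 clone, so guide and clone cannot be told apart. Set against gSOX10 #2, gSOX10 #4 had 0 members called higher, beside 2.64% of all genes, and 6 called lower, beside 7.06%. The median log2 difference of the 36 members was -0.69, against -0.04 for all genes, and 34 of the 36 differences were negative. At an unadjusted p under 0.05 limma gave 1 member higher, CTSK (0.47 ± 0.21, adjusted p = 0.111), and 27 lower. The share of all genes at that threshold was not counted. GPNMB differed most, at -1.94 ± 0.20 (SE, adjusted p = 2.06e-06), the gSOX10 #4 mean being 0.262-fold that of gSOX10 #2. It was followed by GRN (-1.50 ± 0.26, adjusted p = 0.000429), CTSA (-1.45 ± 0.18, adjusted p = 2.12e-05), GAA (-1.43 ± 0.35, adjusted p = 0.00621), TPP1 (-1.16 ± 0.17, adjusted p = 0.000103) and PSAP (-1.08 ± 0.16, adjusted p = 0.000113). For each of these 6 the 3 gSOX10 #4 libraries lay below the 3 gSOX10 #2 libraries. The TPP1 call was lost without gSOX10 #4 replicate 1 (log2 value -0.97). TFEB (-0.14 ± 0.41, adjusted p = 0.859) and TFE3 (-0.05 ± 0.11, adjusted p = 0.812) gave no call between the clones, with 95% intervals of -0.99 to 0.72 for TFEB and -0.29 to 0.19 for TFE3. SOX10 itself, given above, overlapped between the clones.

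**Figure D4:**
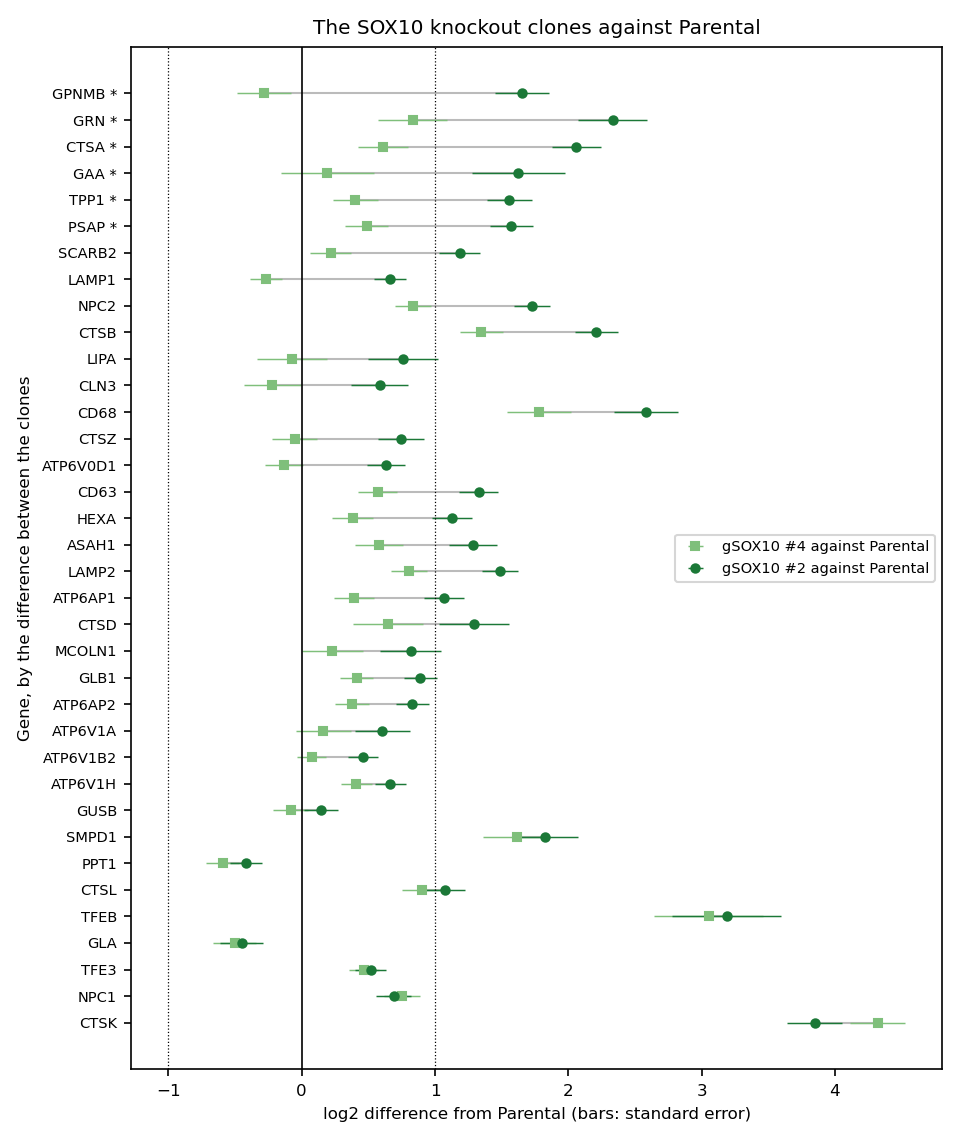
Log2 difference from Parental of each member in gSOX10 #4 (squares) and gSOX10 #2 (circles), with bars of 1 SE, sorted by the difference between the clones. Dotted lines mark a fold of 2 and asterisks the 6 members called between the clones, and GPNMB at the top differs by -1.94.

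The effect of the inhibitors was measured by setting Combo against DMSO cultures of the same line. CRT34 Combo had 2 members called higher than CRT34 DMSO, beside 2.84% of all genes, and 0 lower, beside 2.26%, with a median log2 difference of 0.12 for the members and 0.00 for all genes. The called members were LIPA (1.47 ± 0.26, adjusted p = 0.00198) and GPNMB (1.47 ± 0.20, adjusted p = 0.000248). Every CRT34 Combo library was above every CRT34 DMSO library for both, and replicate 3 of CRT34 Combo was nearest to DMSO. Without that library and CRT35 DMSO replicate 1 the log2 differences were 1.95 for LIPA and 1.75 for GPNMB, with 2 members called as before, while fitting the 6 CRT34 libraries alone gave 0 calls (adjusted p = 0.13 for LIPA and 0.0588 for GPNMB). At an unadjusted p under 0.05, 2 members were lower with limma, among them CTSB (-0.64 ± 0.16, adjusted p = 0.0199), lower in every Combo library and under the fold.

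CRT35 Combo had 0 members called higher than CRT35 DMSO, beside 0.487% of all genes, and 0 lower, beside 0.648%, and the median log2 difference was 0.24 for the members and 0.01 for all genes. At an unadjusted p under 0.05, where all genes were not counted, limma gave 10 members higher and 0 lower. The largest difference was SMPD1 (0.86 ± 0.25, adjusted p = 0.0988). SMPD1 was called when the 2 libraries named above were left out, at 1.01 on the log2 scale with an adjusted p of 0.0146. LIPA (0.62 ± 0.26) and GPNMB (0.36 ± 0.20) were higher in every CRT35 Combo library than in every CRT35 DMSO library, without a call. MITF was 1.72 ± 0.31 (SE, adjusted p = 0.0022) in CRT34 and 1.10 ± 0.31 (SE, adjusted p = 0.0904) in CRT35. In CRT34 Combo replicate 3 MITF was at 3772, beside 8954 and 10250 in the other libraries of that group.

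The inhibitor effect in CRT35 minus that in CRT34 gave 0 members called higher, beside 0% of all genes, and 0 called lower, beside 0.0104%. At an unadjusted p under 0.05 limma gave 1 member higher and 3 lower, with GPNMB at -1.11 ± 0.29 (SE, adjusted p = 0.266) and LIPA at -0.85 ± 0.37 (SE, adjusted p = 0.638). This result depended on CRT34 Combo replicate 3: without it LIPA (-1.33, adjusted p = 0.00366) and GPNMB (-1.39, adjusted p = 0.0069) were called lower, and the calls over all genes went to 220, against 2 with all libraries.

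**Figure D5:**
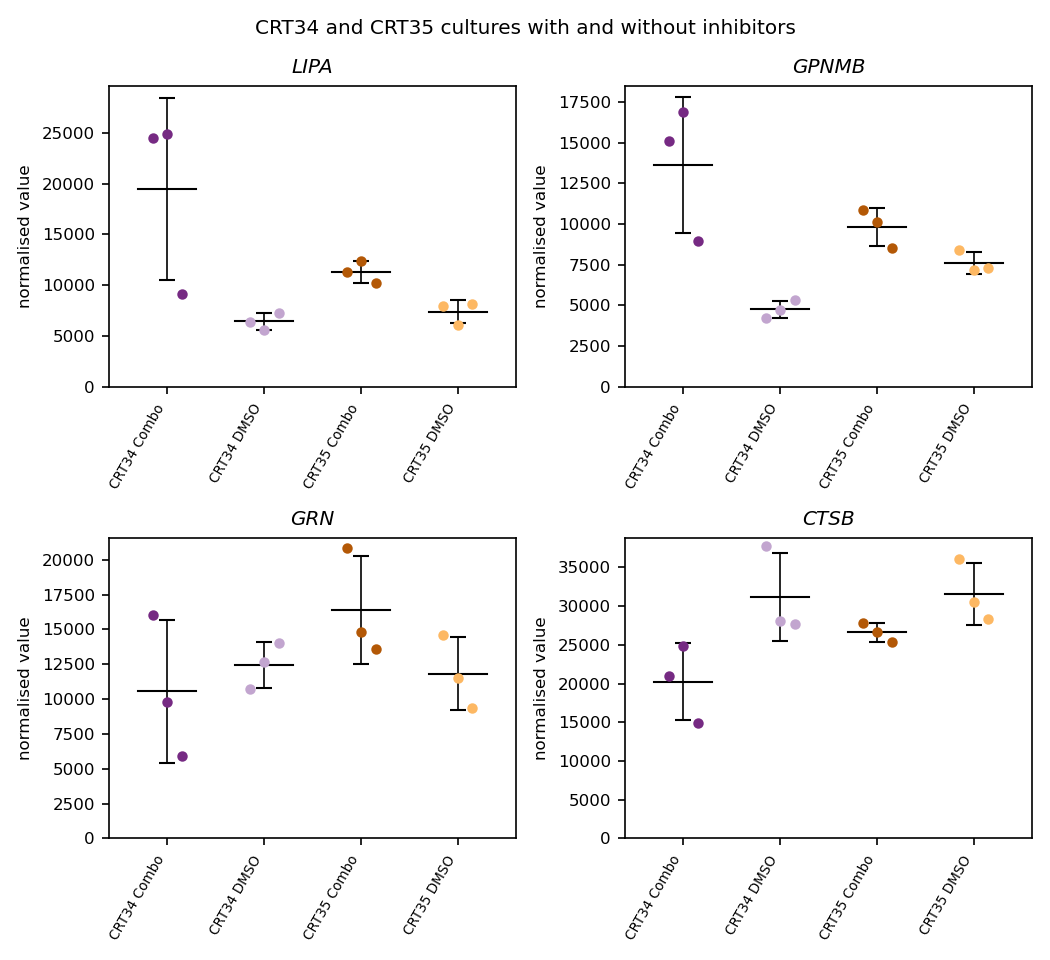
Normalised value of LIPA, GPNMB, GRN and CTSB in each CRT34 and CRT35 library with the inhibitors (Combo) and without (DMSO), on linear axes from 0. Points are libraries, horizontal bars group means and vertical bars 1 SD (n = 3). For LIPA 2 of the 3 CRT34 Combo points are at 24440 and 24880 and the third is at 9090.

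Between the tolerant lines, CRT35 DMSO against CRT34 DMSO gave 0 members called higher, beside 3.69% of all genes, and 0 lower, beside 4.42%, with 10 higher and 2 lower at an unadjusted p under 0.05 in limma. The median log2 difference was 0.16 for the members and 0 for all genes. CTSD, given above, was the largest. CRT35 Combo against CRT34 Combo gave 2 members called higher, beside 3.17% of all genes, and 0 lower, beside 3.74%, with a median of 0.24 for the members and 0.00 for all genes. At an unadjusted p under 0.05 limma gave 15 higher and 4 lower. For neither pair of groups were all genes counted at the unadjusted threshold. The called members were TFEB (1.28 ± 0.41, adjusted p = 0.0425), whose CRT35 Combo libraries all lay above those of CRT34 Combo, and GAA (1.19 ± 0.35, adjusted p = 0.0271), whose libraries overlapped. Both calls were lost without CRT34 Combo replicate 3, at log2 values of 1.15 for TFEB and 0.71 for GAA, and LIPA (-1.13, adjusted p = 8.2e-05) and CTSK (1.11, adjusted p = 0.00247) were called in their place. Both were also lost without CRT34 Combo replicate 2 (adjusted p = 0.178 for TFEB and 0.0838 for GAA), CRT35 Combo replicate 1 (0.133 for TFEB and 0.121 for GAA) or CRT35 Combo replicate 2 (0.113 for TFEB and 0.0577 for GAA). Same-numbered Combo libraries of the 2 lines deviated together (r = 0.218, 0.253 and 0.2075 over genes), though no source used here says that they were handled together. With the replicate block 2 members were called as without it.

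Lists of other lysosome genes, which hold none of the 36, were counted in the same way. The shares of all genes called higher were 15.9% in gSOX10 #2, 11.8% in gSOX10 #4, 19.1% in CRT34 Combo, 20.1% in CRT35 Combo and 15.7% in each DMSO group. Of 31 other lysosomal enzymes, 20 were called higher in gSOX10 #2, 8 in gSOX10 #4, 17 in CRT34 Combo, 22 in CRT35 Combo and 12 in each DMSO group, and 1 or 2 were called lower, among them CTSV, cathepsin V, which was named after its values were seen, in all 6 (down to -3.56 in CRT35 Combo). These are shares of 64.5% in gSOX10 #2, 25.8% in gSOX10 #4, 54.8% in CRT34 Combo, 71% in CRT35 Combo and 38.7% in each DMSO group. The median log2 difference of the list was 1.28 in gSOX10 #2, 0.49 in gSOX10 #4, 1.09 in CRT34 Combo, 1.38 in CRT35 Combo, 0.69 in CRT34 DMSO and 0.95 in CRT35 DMSO. FUCA1, alpha-fucosidase, was called in all 6, from 1.32 in CRT34 DMSO to 2.62 in gSOX10 #2, as was HGSNAT, which acetylates heparan sulfate, from 1.04 in CRT35 DMSO to 1.56 in CRT35 Combo, the CRT35 DMSO call being lost without replicate 1 of that group (0.95). ACP5, the tartrate-resistant acid phosphatase of osteoclasts and macrophages, was called in 5 groups, up to 3.0 in CRT35 Combo.

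Of 17 other V-ATPase subunits, 2 were called higher in gSOX10 #2, 2 in gSOX10 #4, 4 in CRT34 Combo, 4 in CRT35 Combo, 2 in CRT34 DMSO and 3 in CRT35 DMSO, while 1 was called lower in gSOX10 #2 and 2 in gSOX10 #4. The shares called higher, 11.8% in gSOX10 #2, gSOX10 #4 and CRT34 DMSO, 23.5% in the Combo groups and 17.6% in CRT35 DMSO, were near or under those of all genes. TCIRG1, the a3 subunit used by osteoclasts and lysosomes, was called in all 6 groups (1.28 to 1.57). ATP6V1C2, whose values were 4.81, 0 and 0 in gSOX10 #2 and 1.32, 0 and 0 in gSOX10 #4, against 7.32, 3.90 and 6.25 in Parental, passed the filter only through the CRT groups. Its calls as lower in the clones, counted above, rest on values under the filter of 10. Calls in the higher direction came in CRT34 Combo (3.48), CRT35 Combo (2.16) and CRT34 DMSO (3.28), against the same low Parental values. ATP6V0D2 was called in gSOX10 #2 (4.53), gSOX10 #4 (4.1) and CRT35 DMSO (3.35, or 2.61 without replicate 1 of that group, which was at 159.5, beside 54.5 and 20.8). Parental ATP6V0D2 was at 3.86, 13.2 and 1.67, so these log2 differences rest on a Parental level near or under the filter of 10. ATP6V0E1 was called in CRT34 Combo (1.15), CRT35 Combo (1.76) and CRT35 DMSO (1.49).

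Of 18 other lysosomal membrane proteins, 4 were called higher in gSOX10 #2, 3 in gSOX10 #4, 2 in CRT34 Combo, 5 in CRT35 Combo, 3 in CRT34 DMSO and 5 in CRT35 DMSO, and 1 lower in gSOX10 #4. The shares called higher were 22.2% in gSOX10 #2, 16.7% in gSOX10 #4, 11.1% in CRT34 Combo, 27.8% in CRT35 Combo, 16.7% in CRT34 DMSO and 27.8% in CRT35 DMSO. That of CRT34 Combo was under the share of all genes. Without CRT34 Combo replicate 3 and CRT35 DMSO replicate 1, 3 were called higher in CRT34 Combo and 2 in CRT35 DMSO, where TMEM175 (0.95) and LAPTM4A (0.98) were lost. The cation channel gene TPCN1 was called in all 6 (1.40 to 2.16), SLC17A5, which exports sialic acid, in 4 (up to 1.66 in gSOX10 #2), the channel gene TMEM175 in 4 (up to 1.38 in CRT35 Combo) and LAPTM4A in CRT35 Combo (1.23) and CRT35 DMSO (1.01). Of 6 genes that sort enzymes to lysosomes, 1 was called higher in gSOX10 #2, 2 in CRT34 Combo and 2 in CRT35 Combo, namely GNPTG, a subunit of the enzyme that starts the mannose 6-phosphate tag, in all 3 (1.43 in gSOX10 #2) and the sorting receptor gene SORT1 in the Combo groups (1.44 in CRT34 Combo). These are shares of 16.7%, 33.3% and 33.3%, beside 15.9%, 19.1% and 20.1% of all genes, and the other groups had 0%.

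MITF, TFEC and genes that control MiT factors, 19 in all, were seldom called higher, in shares of at most 10.5%. Of these, 1 was higher in gSOX10 #2, 1 in gSOX10 #4, 2 in CRT34 Combo, 2 in CRT35 Combo and 0 in the DMSO groups. The call in gSOX10 #4 was TFEC and those in the Combo groups were MITF and TFEC, so no controlling gene was called higher there. RRAGD, a Rag GTPase through which mTORC1 acts on TFEB, was called lower in CRT35 Combo (-1.64 ± 0.20, adjusted p = 2.39e-06) and CRT35 DMSO (-1.61 ± 0.20, adjusted p = 3.88e-06). Of 11 autophagy genes, 5 were called higher in gSOX10 #2, 4 in gSOX10 #4, 3 in CRT34 Combo, 3 in CRT35 Combo, 3 in CRT34 DMSO and 1 in CRT35 DMSO. In that order the shares were 45.5%, 36.4%, 27.3%, 27.3%, 27.3% and 9.09%. Of all genes, 15.9%, 11.8%, 19.1%, 20.1%, 15.7% and 15.7% were called higher, so CRT35 DMSO was under the background. WIPI1, which helps form autophagosomes, was called in all 6 (1.26 to 2.70), GABARAPL1 in 4 (up to 2.04 in CRT34 Combo), the cargo receptor gene SQSTM1 in the clones (1.51 in gSOX10 #2 and 1.02 in gSOX10 #4) and the coactivator gene PPARGC1A in gSOX10 #2 (4.1), gSOX10 #4 (2.08) and CRT34 Combo (1.56).

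Set beside the promoters, members with TCACGTGA differed in their calls. CTSA was called in 3 and GAA in 2 of the 6 groups against Parental, whereas LAMP1, CLN3, MCOLN1 and ATP6V0D1 were called in none. Of the members with CACGTG but not TCACGTGA, CTSD was called in 2 groups and CD63 in 1. Members without CACGTG in their windows differed too. CD68 and SMPD1 were called in all 6 groups and GRN and TFEB in 5, while NPC1, CTSZ, GLA, GLB1, GUSB, PPT1 and TFE3 were called in none. A link between the motif and the calls was not tested. CTSB and CTSK, also called in all 6, and LAMP2, called in 5, were among the members whose windows were not analysed here.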

How the data were processed

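RNA from 21 libraries of A375 cells was sequenced with an Illumina TruSeq protocol, and the sources used here differ on whether the kit kept strand, so reads of a gene and an overlapping antisense gene may not be told apart. Per the labels, the authors aligned reads to GRCh38 with STAR 2.6.1a, estimated gene counts with RSEM and scaled them with DESeq2. The deposited value of each gene is thus a depth-scaled signal and not a read count, and whole reads could not be recovered from it, so no count-based test was run. Total values were 59.2 M to 68.3 M per library.

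Gene symbols came from GENCODE 44 (58472 of 58870 identifiers matched). Values were analysed as log2(value + 1) with limma 3.58.1 in R 4.3.3, with a mean for each of the 7 groups, an intensity trend and empirical Bayes moderation (14 residual and 4.7 prior degrees of freedom), over 19290 genes with at least 10 in at least 3 libraries. P-values were adjusted by the Benjamini-Hochberg method over all of them, separately in each of 12 comparisons, with calls at an adjusted p up to 0.05 and a fold of 2 or more. The test was checked on simulated data. Figures were drawn with matplotlib 3.10.9 in Python 3.11.15.

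Members, lists and tests were chosen with earlier results of these data known. TFEB, TFE3, GPNMB and members called in at least 2 of 8 comparisons (with Parental, or Combo with DMSO) are given in every library, members called in 1 by group means, and the rest by ranges and counts. In each other list, MITF, TFEC and up to 4 genes with the lowest p among those called in at least 2 of these comparisons are named, and 1 such gene is not reported here.

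Alternatives were no filter, a pseudocount of 10, equal totals, quantile normalization, the compared groups' libraries only, a replicate block, and leaving out each library. Leaving out the libraries that stand apart was added for the other lists after seeing the data. Replicate numbers of gSOX10 #2 came from accession order. Among the other groups, same-numbered libraries deviated together in all 3 pairs only between CRT34 Combo and CRT35 Combo (r = 0.218, 0.253 and 0.2075 over genes).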

Additional observations from a re-analysis of the deposited data

Results flagged for a closer look

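Between the knockout clones, gSOX10 #4 minus gSOX10 #2, 6 members differed past the threshold of the limma test, and since each group is 1 clone, knockout and clone cannot be told apart. The log2 differences were -1.94 for GPNMB, -1.50 for GRN, -1.45 for CTSA, -1.43 for GAA, -1.16 for TPP1 and -1.08 for PSAP. With the inhibitors, CRT35 minus CRT34 differed by 1.28 for TFEB and 1.19 for GAA on the log2 scale, and both calls were lost without CRT34 Combo replicate 2 or 3 or CRT35 Combo replicate 1 or 2.

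LAMP1 went in opposite directions against Parental in every library of the 2 clones, at -0.27 in gSOX10 #4 and 0.66 in gSOX10 #2, and of the 2 lines without inhibitors, at -0.21 in CRT35 DMSO and 0.15 in CRT34 DMSO. In the direct comparison LAMP1 was -0.93 (adjusted p = 2.28e-05) for gSOX10 #4 against gSOX10 #2 and -0.36 (adjusted p = 0.048) for CRT35 DMSO against CRT34 DMSO, both under a fold of 2.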

How the results depend on the processing

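Of 81 calls of a member in a comparison, 70 were kept under every alternative, 11 were lost under at least 1, 6 of them under a setting other than leaving out 1 library, and 0 reversed. Leaving out 1 library gave, for members called, 20 in gSOX10 #2, 5 to 6 in gSOX10 #4, 9 to 12 in CRT34 Combo, 15 to 16 in CRT35 Combo, 8 to 9 in CRT34 DMSO and 10 to 13 in CRT35 DMSO against Parental, 2 for Combo against DMSO in CRT34 and 0 in CRT35, 6 to 7 between the clones, 0 to 1 and 0 to 4 between the lines without and with inhibitors, and 0 to 2 for the difference in inhibitor effect. The counts over all genes ranged from 535 to 1534 for Combo against DMSO in CRT34 (983 with all libraries), from 97 to 206 in CRT35 (219) and from 2 to 220 for the difference (2). GPNMB in CRT35 Combo against Parental, 0.06 with all libraries, ranged from -0.074 without Parental replicate 3 to 0.17 without Parental replicate 1, and was -0.010 without CRT35 Combo replicate 1.

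Without CRT34 Combo replicate 3 and CRT35 DMSO replicate 1, all genes called went to 1543 for Combo against DMSO in CRT34, 347 in CRT35 and 281 for the difference, and members to 1 in CRT35 and 2 for the difference. With the libraries of the compared groups only, the 2 members called for Combo against DMSO in CRT34 went to 0, with 80 genes in all, and the 2 called between the Combo groups to 0, with 846 genes in all against 1333, while the difference gave 1 gene. These fits have fewer residual degrees of freedom. Between the Combo groups 1 member was called without the filter and 1 with equal totals. The difference gave 4 genes without the filter, 12 with a pseudocount of 10, 4 with equal totals and 4 with quantile normalization. The cause was not tested.

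With the replicate block the count of members called was 2 between the Combo groups, where same-numbered libraries deviated together. It equalled the count without the block in each of the 10 comparisons with it. No blocked fit was possible with gSOX10 #2. Estimated depth was 27.9 M reads or more per library, and with 3 libraries a group, differences near a fold of 2 moved across the threshold. Low levels of TFEB (14.4 to 49.3 in Parental) limit its precision.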
